A study of Mus musculus with 6 samples.

Results

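Cholesterol synthesis and lipogenesis genes were examined in primary mouse hepatic stellate cells treated with obeticholic acid (OCA), a bile acid derivative and agonist of the nuclear receptor FXR, or with its vehicle DMSO. The 33 genes were taken by symbol from a table of exon counts with 24940 genes, and all 33 were present and passed the filter on low counts, as did 12687 genes in all. They form a branch of 23 genes assigned to the transcription factor SREBP2 and a branch of 10 genes assigned to SREBP1 and the oxysterol receptor LXR. The cells came from female mice of the C57BL/6JBomTac strain, an unmodified inbred line, and were exposed for 6 hours, 2 days after isolation. The OCA group (10 µM, replicates A, B and C) and the DMSO group (the same volume of vehicle, replicates A, B and C) held 3 libraries of polyadenylated RNA each. P-values only set the difference between the groups against the spread of these libraries within groups. Both may be technical, since age, pooling of animals and whether replicates were separate isolations were not given in the sources used here.

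Cells make cholesterol from acetyl-CoA through mevalonate, isoprenoid units, squalene and lanosterol. When sterols in the endoplasmic reticulum are scarce, SCAP escorts SREBP2 to the Golgi, where proteases release its active fragment, and the genes of the pathway are transcribed together; INSIG proteins hold the complex back when sterols are plentiful. SREBP1 works mainly on fatty acid synthesis, and its gene is itself a target of LXR, which senses oxysterols. In hepatocytes FXR is known as a repressor of bile acid synthesis and of lipogenesis, whereas stellate cells are pericytes of the liver sinusoids that store vitamin A and carry their own lipid droplets.

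Promoters of the genes were read from RefSeq (build GRCm38.p6, the assembly that mm10 names), as the 250 bases before and 50 bases after the start of transcription. A promoter was found for 27 of the 33 genes, and for 26 of these its start was the start given in the count table. None was at hand for Fdft1, Fdps, Sqle, Stard4, Scd1 and Scd2. The 4 stretches of 100 bases below show letter matches to promoter elements in 2 genes of each branch. Each stretch lies upstream of the start and outside annotated exons. Elements bound by LXR were not searched. Capitals mark the sterol regulatory element (searched as TCACNCCAC), the NF-Y box (CCAAT, or ATTGG on the other strand) and the E-box CACGTG, and every stretch is written 5′ to 3′ on the strand of its gene.
Hmgcs1, chr13:119690153-119690252, plus strand: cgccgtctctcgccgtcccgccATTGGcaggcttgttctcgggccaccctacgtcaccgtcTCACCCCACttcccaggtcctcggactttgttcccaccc
Insig1, chr5:28071263-28071362, plus strand: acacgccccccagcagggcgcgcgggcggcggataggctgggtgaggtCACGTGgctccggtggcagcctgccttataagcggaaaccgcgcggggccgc
Fasn, chr11:120824568-120824667, minus strand: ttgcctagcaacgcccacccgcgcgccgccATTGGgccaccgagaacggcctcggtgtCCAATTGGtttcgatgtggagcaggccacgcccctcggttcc
Lpcat3, chr6:124662854-124662953, plus strand: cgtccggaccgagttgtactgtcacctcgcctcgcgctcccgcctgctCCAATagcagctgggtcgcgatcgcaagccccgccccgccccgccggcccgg

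Hmgcs1 was the only one of the 27 promoters with a match to the sterol element, whose first base lay 137 bases upstream of the start. That is 3.7% of the promoters, against 1.04% of the 9867 tested genes with a promoter. With every letter fixed (TCACCCCAC) the shares were 3.7% and 0.497%. The NF-Y box was matched in 19 of the 27 promoters (70.4%) and in 38.8% of those of tested genes, and Fasn held 3 matches, of which a pair overlaps within its second capital run. The Sp1 box GGGCGG was matched in 22 (81.5%) against 67.4%, and the E-box in 5 (18.5%) against 10.5%. By branch, the NF-Y box was in 14 of 19 SREBP2 and 5 of 8 SREBP1 promoters, and the Sp1 box in 18 of 19 and 4 of 8. Both strands were searched, and a match describes letters in this window only.

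No gene of either branch passed the test for a change after OCA. With edgeR (quasi-likelihood test, p adjusted by Benjamini-Hochberg over all tested genes, threshold 0.05), 0 of 33 were called higher and 0 of 33 lower, where 2.18% of tested genes were called higher and 3.03% lower. DESeq2 and limma-voom also called 0 of 33 in either direction. At an unadjusted p under 0.05, 7 of the 33 were higher (8.26% of tested genes) and 2 were lower (10.7% of tested genes), and the lowest adjusted p among the 33 was 0.107, for Tm7sf2. The OCA libraries lay all above the DMSO libraries for 8 of the 33 genes (11.6% of tested genes) and all below for 2 (11.3% of tested genes), and the groups overlapped for the other 23.

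The fitted differences were small in both branches. Over the SREBP2 genes the log2 fold changes of OCA over DMSO had a median of 0.12, with 17 of 23 above 0 (73.9%, against 50.2% of tested genes). Over the SREBP1 genes the median was -0.04, with 4 of 10 above 0, beside 0.001 over all tested genes. The 23 values ran from -0.22 (Stard4) to 1.02 (Tm7sf2), and the 10 values from -0.27 (Elovl6) to 0.20 (Fasn). Without OCA replicate A the SREBP2 median was 0.03. The 2 branches share the same 6 libraries, and the difference between them was not tested. In bulk RNA, fewer cells expressing a gene and less of its RNA per cell cannot be told apart.

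**Figure D1:**
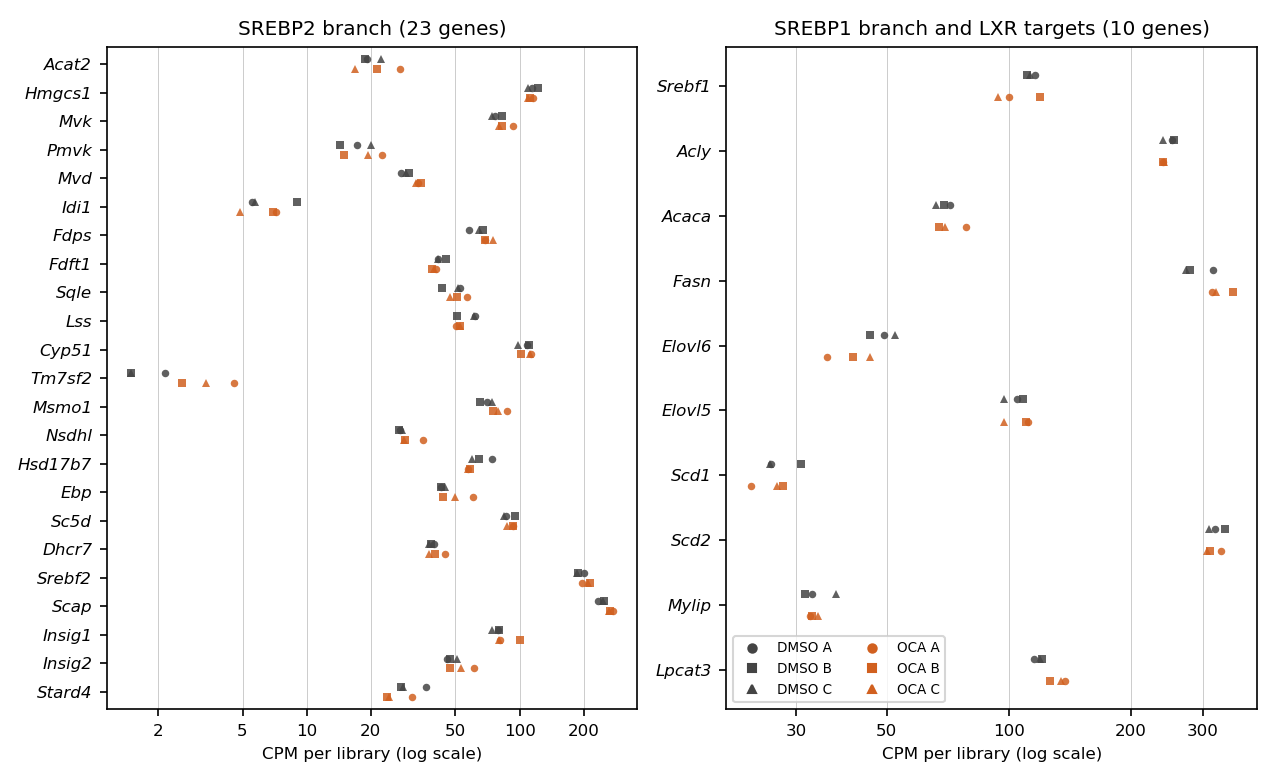
Level of each gene in each library, in CPM (counts relative to the TMM-scaled library total) on a log axis, with the SREBP2 branch of 23 genes and the SREBP1 branch of 10 genes apart; each point is 1 library, coloured by group. Points of the OCA and DMSO groups lie close together for nearly every gene, and Tm7sf2, the lowest of all, has the widest gap.

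Levels below are in CPM, a gene's counts relative to the total of its library. Per exon length (RPKM, CPM per kilobase of exon), levels in the DMSO libraries ranked the genes by the abundance of their RNA. Scd2 was highest at 59.6 RPKM, followed by Scap at 57.8, Acly at 56.7, Lpcat3 at 47.7, Mvk at 45.3, Fdps at 43.7 and Srebf2 at 42.1. The lowest were Tm7sf2 at 1.18 RPKM and Idi1 at 2.37 RPKM, followed by Scd1 at 5.69 and Stard4 at 5.81. Of the stearoyl-CoA desaturases, which place the double bond in oleate and palmitoleate, Scd2 was thus the more abundant per length and Scd1 the less. Scd1 and Scd2 are close paralogs, and the counting of reads that match both was not given in the sources used here.

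Early steps of the pathway, from acetyl-CoA to farnesyl diphosphate, were represented by 7 enzymes, 5 with a log2 fold change above 0 and a median of 0.13. Hmgcs1 (chr13:119690351-119708260, plus strand), which condenses acetoacetyl-CoA with acetyl-CoA and carries the sterol element printed above, had 114, 123 and 109.9 CPM in the DMSO libraries and 116, 112 and 109 CPM in the OCA libraries, replicates A, B and C in that order here and below. The groups overlapped, and the log2 fold change was -0.04 (SE 0.07, 95% interval -0.18 to 0.10). A fitted change of Hmgcs1 beyond 1.17-fold would have been called, and a true change of 1.22-fold with a probability of 80%. In the GENCODE vM21 annotation, 12.1% of the exon bases of Hmgcs1 are shared with Gm48342 on the other strand.

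Mvd, which decarboxylates mevalonate diphosphate to isopentenyl diphosphate, had 27.8, 30.3 and 29.4 CPM with DMSO and 33.5, 34.3 and 32.7 CPM with OCA. All 3 OCA libraries lay above all 3 DMSO libraries, with a log2 fold change of 0.20 (SE 0.10), an unadjusted p of 0.047 and an edgeR adjusted p of 0.257. Fdps, the farnesyl diphosphate synthase, was likewise separated, at 57.9, 67.1 and 64.6 CPM with DMSO and 68.6, 68.5 and 74.9 CPM with OCA. Its log2 fold change was 0.16 (SE 0.08, edgeR adjusted p = 0.265). By the GENCODE vM21 annotation, 26.7% of the exon bases of Fdps are shared with the model Gm43738 on the same strand.

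Mvk, the mevalonate kinase, overlapped between groups, with 77.8 ± 4.54 CPM in DMSO and 85.3 ± 6.74 CPM in OCA libraries (SD, n = 3 in each group, here and below). The phosphomevalonate kinase Pmvk (17.2 ± 2.8 and 19.0 ± 3.77 CPM) and the cytosolic thiolase Acat2 (20.1 ± 1.95 and 21.8 ± 5.28 CPM) had differences within the spread of their libraries. Idi1, which interconverts the 2 isoprenoid building blocks, was low, at 5.55, 9.03 and 5.73 CPM with DMSO and 7.21, 6.98 and 4.87 CPM with OCA. Its highest value was a DMSO library and its lowest an OCA library, yet the groups overlapped throughout. Only a fitted change of Idi1 beyond 1.81-fold would have been called, and a true change of 2.12-fold with a probability of 80%.

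From squalene to cholesterol the list held 11 enzymes, with a median log2 fold change of 0.07 and 8 above 0. Tm7sf2 (chr19:6062821-6067850, minus strand) encodes a sterol C14 reductase, and its counts were 36, 17.5 and 23 with DMSO and 61, 33.5 and 43 with OCA. On the CPM scale these were 2.17, 1.51 and 1.5 with DMSO and 4.58, 2.61 and 3.38 with OCA. Every OCA library lay above every DMSO library, and replicate A was the highest of both groups.

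The log2 fold change of Tm7sf2, 1.02 (SE 0.35), was the highest of the 33, and its 95% interval ran from 1.21-fold to 3.38-fold. With an unadjusted p of 0.00931 and an edgeR adjusted p of 0.107 it was not called. At these counts a fitted change had to pass 2.34-fold. Of its exon bases, 12.1% are shared with Vps51 on the same strand. Another C14 reductase activity resides in the lamin B receptor, which the list does not hold.

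Msmo1, the methylsterol monooxygenase that begins removal of the C4 methyl groups, had 70.6, 65.4 and 74.4 CPM with DMSO and 86.9, 74.8 and 78.8 CPM with OCA. The groups did not overlap, with OCA replicate A well above the rest, and the log2 fold change was 0.19 (SE 0.08, edgeR adjusted p = 0.179). Nsdhl, the next enzyme of C4 demethylation, was also separated, but only just. Its levels were 27.3, 27.3 and 28.0 CPM with DMSO and 35.3, 29.0 and 28.7 CPM with OCA (log2 fold change 0.17, SE 0.11), and without OCA replicate A the log2 fold change was 0.07.

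Hsd17b7, the 3-ketosteroid reductase that completes C4 demethylation, went the other way. It had 74.1, 64.2 and 59.5 CPM with DMSO and 57.3, 58.4 and 57.3 CPM with OCA, so that the OCA libraries were all lower and nearly equal. Its log2 fold change was -0.19 (SE 0.08, unadjusted p = 0.0315, edgeR adjusted p = 0.209). The fitted values of the 3 enzymes of C4 demethylation thus did not share a sign.

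Ebp, the sterol isomerase that moves the double bond from C8 to C7, had 42.9, 42.9 and 44.5 CPM with DMSO and 60.6, 43.7 and 49.6 CPM with OCA. The lowest OCA library lay among the DMSO values, and OCA replicate A stood far above the others. The log2 fold change was 0.24 (SE 0.10, edgeR adjusted p = 0.197), and it depended on single libraries. Without OCA replicate A it was 0.10 (adjusted p = 0.637), and without OCA replicate B it was 0.35 (adjusted p = 0.0207). Without both OCA replicate B and DMSO replicate A, edgeR called Ebp (log2 fold change 0.34, adjusted p = 0.0192) and Tm7sf2 (1.40, adjusted p = 0.0494). OCA replicate A is then 1 of the 2 OCA libraries that remain.

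Fdft1, the squalene synthase at the branch point to sterols, had 41.3, 45.0 and 41.5 CPM with DMSO and 40.6, 38.6 and 39.7 CPM with OCA. The OCA libraries were all lower, by a log2 fold change of -0.10 (SE 0.09), and 18.3% of the gene's exon bases overlap Ctsb on the other strand. Whether counting used strand was not given in the sources used here. For the rate-controlling squalene epoxidase Sqle the levels were 49 ± 5.1 CPM with DMSO and 51.7 ± 4.81 CPM with OCA, within the spread of the libraries.

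Lss, which cyclizes epoxysqualene to lanosterol, had 57.8 ± 6.12 and 51.7 ± 1.4 CPM, and the groups overlapped. Cyp51, the lanosterol demethylase, had 105 ± 6.63 and 109 ± 6.28 CPM. The last desaturation and reduction steps were as close, with Sc5d at 88.4 ± 5.49 and 91.1 ± 3.48 CPM and Dhcr7 at 38.6 ± 1.02 and 40.7 ± 3.57 CPM. The 95% intervals of Cyp51, Sc5d and Dhcr7 all excluded a change of 1.25-fold in either direction.

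The 4 genes listed as regulators in the branch (Srebf2, Scap, Insig1 and Insig2) had log2 fold changes between 0.11 and 0.17, all above 0. Scap, the sterol sensor and escort protein, had 234, 249 and 246 CPM with DMSO and 275, 265 and 262 CPM with OCA. The groups were separated (log2 fold change 0.14, SE 0.06, unadjusted p = 0.0422, edgeR adjusted p = 0.243). Of the exon bases of Scap, 13.2% are shared with 5830462I19Rik on the other strand. Insig1, the sterol-responsive retention protein, was separated only narrowly, at 78.9, 80.3 and 74.0 CPM with DMSO and 80.5, 100.2 and 80.4 CPM with OCA. Its log2 fold change of 0.16 (SE 0.08) came with 1 high library, OCA replicate B, and was 0.05 without it.

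Insig2, the second retention protein, had 47.8 ± 2.7 CPM with DMSO and 53.8 ± 6.8 CPM with OCA and overlapped, and its log2 fold change of 0.17 was 0.07 without OCA replicate A. Srebf2 itself (chr15:82147269-82204960, plus strand) had 202, 187 and 185 CPM with DMSO and 197, 214 and 210.2 CPM with OCA. The groups overlapped through DMSO replicate A and OCA replicate A, and the log2 fold change was 0.11 (SE 0.07, 95% interval from 0.985-fold to 1.19-fold). Summed over the 4 regulators, the level ran from 556 to 563 CPM in the DMSO and from 605 to 627 CPM in the OCA libraries, without overlap. Stard4, which carries cholesterol between membranes and is a known SREBP2 target, had 36.5, 27.8 and 28.3 CPM with DMSO and 31.4, 23.8 and 24.5 CPM with OCA. In both groups replicate A was the highest, and the log2 fold change was -0.22 (SE 0.13, edgeR adjusted p = 0.374). It was -0.08 without DMSO replicate A and -0.36 without OCA replicate A.

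**Figure D2:**
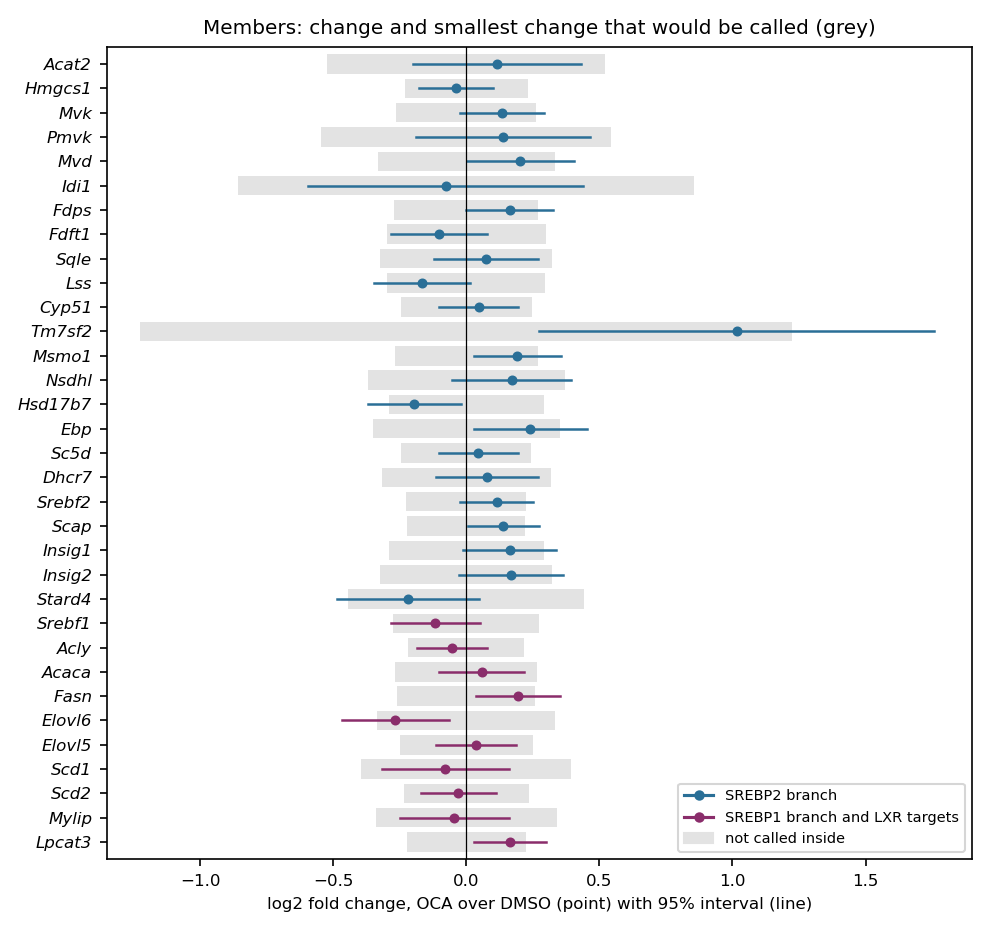
Log2 fold change of OCA over DMSO for each gene (point) with its 95% interval (line) and, in grey, the range of changes too small to be called. Every point lies within its grey range, and Tm7sf2 and Idi1 have the widest ranges, to 2.34-fold and 1.81-fold.

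In the SREBP1 branch the transcription factor's own gene Srebf1 (chr11:60199084-60220627, minus strand), which LXR is known to induce, had 116, 111 and 113 CPM with DMSO and 100, 119.6 and 93.9 CPM with OCA. Its OCA libraries scattered to both sides of the DMSO libraries, with a log2 fold change of -0.12 (SE 0.08, edgeR adjusted p = 0.453). Without OCA replicate B the value was -0.22 (edgeR adjusted p = 0.0657), and without OCA replicate C it was -0.05. A fitted change of Srebf1 beyond 1.21-fold would have been called. For a call with a probability of 80%, the true change had to reach 1.27-fold. The exon counts do not separate the transcripts for SREBP1a and SREBP1c.

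Acly, the ATP citrate lyase that supplies cytosolic acetyl-CoA, had 252, 255 and 240.3 CPM with DMSO and 239.6, 239.6 and 242 CPM with OCA, and DMSO replicate C lay among the OCA values. It was the most precisely measured of the 33: the 95% interval ran from 0.88-fold to 1.06-fold. Acaca, the acetyl-CoA carboxylase that commits carbon to fatty acids, had 69.0 ± 2.64 and 71.8 ± 5.84 CPM, with overlap.

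Fasn, the fatty acid synthase (chr11:120805958-120824547, minus strand), had 318, 279 and 273 CPM with DMSO and 317, 356 and 324 CPM with OCA. DMSO replicate A and OCA replicate A were almost equal, so the groups just overlapped. The log2 fold change was 0.20 (SE 0.08, unadjusted p = 0.0174, edgeR adjusted p = 0.153). Fasn has the longest exonic sequence of the 33, 9893 bases, and in the fit with offsets for a trend of counts on exon length in each library it was called, with a log2 fold change of 0.39 (edgeR adjusted p = 0.000465).

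Elovl6, which extends palmitate to stearate, was the lowest of the branch relative to DMSO. It had 49.3, 45.6 and 52.4 CPM with DMSO and 35.7, 41.4 and 45.6 CPM with OCA, and the groups met at DMSO replicate B and OCA replicate C. Its log2 fold change was -0.27 (SE 0.10, unadjusted p = 0.0125, edgeR adjusted p = 0.126). Fasn and Elovl6, the enzymes directly before and after palmitate, thus had fitted values of opposite sign, and neither passed the test.

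Elovl5, the elongase of polyunsaturated fatty acids, had 104 ± 5.59 and 106 ± 7.86 CPM. Of the desaturases, Scd1 had 27.5 ± 2.79 CPM with DMSO and 26.0 ± 2.5 CPM with OCA, and Scd2 had 324 ± 14.5 and 318 ± 13 CPM. Both overlapped, and the 95% interval of Scd2 ran from 0.888-fold to 1.08-fold. That of the less abundant Scd1 ran from 0.803-fold to 1.12-fold.

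The 2 other LXR targets, Lpcat3 and Mylip, were not called. Lpcat3, which puts polyunsaturated chains into phospholipids, had 116, 121 and 119 CPM with DMSO and 138, 126 and 135 CPM with OCA. The groups were apart, with a log2 fold change of 0.16 (SE 0.06, unadjusted p = 0.0196, edgeR adjusted p = 0.163), and 10.2% of the exon bases are shared with Emg1 on the other strand. Mylip, the ubiquitin ligase that removes lipoprotein receptors, had 32.8, 31.5 and 37.5 CPM with DMSO and 32.3, 32.7 and 33.8 CPM with OCA. Its OCA values all fell inside the DMSO range.

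How small a change these libraries could show was computed for each gene from its standard error and from the largest unadjusted p that was called over all genes, 0.00257. The smallest change that would have been called had a median of 1.22-fold over the 33 genes, 1.23-fold over the SREBP2 branch and 1.2-fold over the SREBP1 branch, beside 1.26-fold over all tested genes. It lay below 1.25-fold for 20 of the 33 genes (60.6%, against 47.2% of tested genes). For 31 of them it lay below 1.5-fold (93.9%, against 73.9%), the exceptions being Tm7sf2 and Idi1.

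A change at that edge is called in only part of repeated experiments. For a change to be called with a probability of 80%, it had to be larger, with a median of 1.29-fold and a range from 1.21-fold (Acly) to 2.93-fold (Tm7sf2), and it was under 1.5-fold for 29 of the 33. The median level of the 33 genes in the DMSO libraries was 63.2 CPM (49 for SREBP2 and 108 for SREBP1 genes), against 41.0 for all tested genes.

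**Figure D3:**
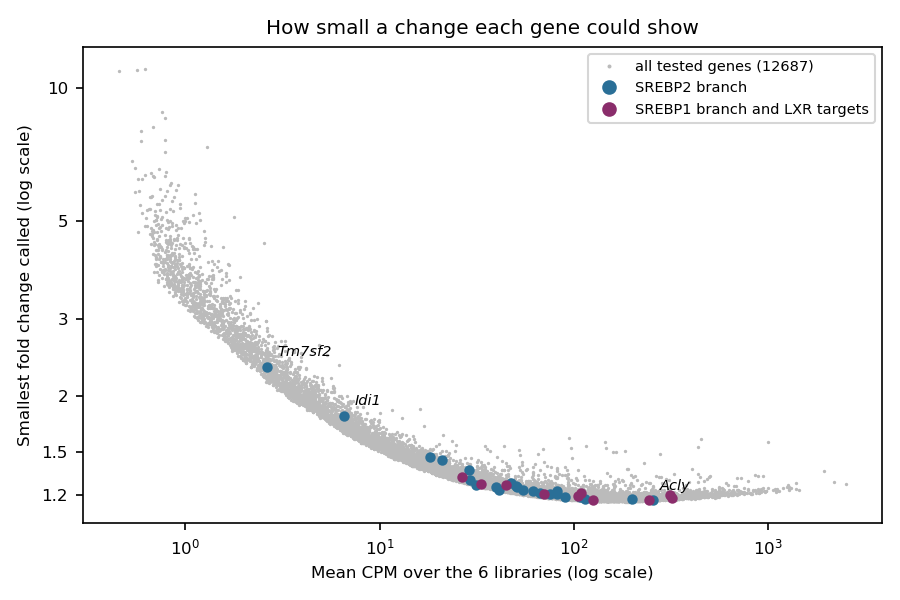
Smallest fold change that would have been called against mean level in CPM, both on log axes, for all tested genes (grey) and for the 2 branches (coloured). The bound falls as the level rises and is flat among abundant genes, where Acly has the lowest of the 33 at 1.16-fold, while Tm7sf2 has the highest at 2.34-fold.

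The 95% intervals say, gene by gene, which changes lie outside the error of the main edgeR fit. They do not cover other ways of processing. With offsets for exon length, Fasn had a log2 fold change of 0.39, above its interval of 0.04 to 0.35. For 17 of the 33 genes the interval lay within 1.25-fold in both directions (51.5%, against 45.3% of tested genes), and these were 9 of 23 SREBP2 and 8 of 10 SREBP1 genes. Within 1.5-fold lay 31 of the 33 (93.9%, against 73.8%), namely 21 of 23 and 10 of 10. The 2 SREBP2 genes outside were Tm7sf2, whose interval reached 3.38-fold, and Idi1, whose interval ran from 0.662-fold to 1.36-fold. A change of 1.5-fold or more in either direction was thus outside the interval of each SREBP1 gene and of every SREBP2 gene but these.

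Among the libraries, OCA replicate A held the highest of the 3 OCA values in 16 of the 23 SREBP2 genes (69.6%), against 34.7% of all tested genes, and in 4 of the 10 SREBP1 genes. The median log2 deviation of the SREBP2 genes from their DMSO mean was 0.18 in OCA replicate A, 0.07 in B and 0.05 in C. For the SREBP1 genes the deviations were -0.01, -0.01 and -0.03. Summed levels ran from 1492 to 1521 CPM in the DMSO libraries and from 1562 to 1656 CPM in the OCA libraries for the SREBP2 genes, with OCA replicate A highest. The sums of the 18 sterol pathway enzymes among them overlapped, at 908 to 929 CPM with DMSO and 927 to 1011 CPM with OCA. For the SREBP1 genes they overlapped, at 1337 to 1408 CPM and 1375 to 1435 CPM.

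Around the pathway, genes of 4 further lists were read from the same fit, which called 2.18% of tested genes higher and 3.03% lower. Other enzymes and partners of sterol synthesis had 0 of 9 tested genes called by edgeR (1 at an unadjusted p under 0.05, median log2 fold change 0.04), and 0 by DESeq2 or limma-voom. The most abundant of them were the cytochrome b5 gene Cyb5b and the P450 reductase gene Por, at 288 ± 11 and 249 ± 9.42 CPM in DMSO libraries. Of the 14 genes for transport and cleavage of SREBPs, 1 fell (3.03% of tested genes) and 13 were not called. The gene that fell was Sec24a (chr11:51692263-51756834, minus strand), a cargo-binding subunit of the COPII coat. It had 79.8, 67.0 and 67.1 CPM with DMSO and 41.3, 66.0 and 48.5 CPM with OCA. OCA replicate B lay just below the DMSO libraries and the other two far below, with a log2 fold change of -0.46 (SE 0.12, edgeR adjusted p = 0.0326). The call was lost with any 1 library other than OCA replicate B left out (highest adjusted p 0.204), with robust estimation (0.21) and with offsets for exon length (0.0575).

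Of 22 tested genes of fatty acid and glyceride synthesis outside the 33, 2 rose, 1 fell and 19 were not called. Over all tested genes, 2.18% were called higher and 3.03% lower. Fads2 (chr19:10064164-10101503, minus strand), the delta-6 desaturase that starts the making of long polyunsaturated fatty acids, had 84.4, 93.3 and 83.6 CPM with DMSO and 145, 144 and 132 CPM with OCA. The groups were far apart, with a log2 fold change of 0.69 (SE 0.07, edgeR adjusted p = 2.42e-06). Its neighbour Fads1 (chr19:10182888-10196872, plus strand), the delta-5 desaturase, had 224, 247 and 229 CPM with DMSO and 308, 282 and 287 CPM with OCA. Fads1 rose by a log2 fold change of 0.33 (SE 0.07, edgeR adjusted p = 0.00715), a call lost without OCA replicate A (adjusted p = 0.0594) or DMSO replicate C (0.0514). Elovl5, which acts between these desaturases and is 1 of the 33, was not called.

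Gpam (chr19:55067636-55127238, minus strand), the mitochondrial acyltransferase that opens glycerolipid synthesis, fell. Its levels were 137, 134 and 126 CPM with DMSO and 89.4, 101 and 84.2 CPM with OCA, with no overlap and a log2 fold change of -0.53 (SE 0.07, edgeR adjusted p = 0.000125). Fads2 and Gpam were called in all 18 alternatives. Both genes are known SREBP1 targets in liver. Other such targets, Fasn, Scd1 and Srebf1, were not called, except Fasn with offsets for exon length (edgeR adjusted p = 0.000465). A part of SREBP1 in any of these values was not tested.

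Among 15 tested genes of sterol efflux, storage and transport, 1 fell (3.03% of tested genes were called lower) and 14 were not called. The gene that fell was Abca1, the LXR-induced exporter of cholesterol. It had 73.0, 64.1 and 56.5 CPM with DMSO and 50.6, 55.5 and 48.5 CPM with OCA. DMSO replicate C and OCA replicate B nearly met, and the log2 fold change was -0.32 (SE 0.09, edgeR adjusted p = 0.0464). Abca1 has 10208 exonic bases, and with offsets for exon length its log2 fold change was -0.12 (adjusted p = 0.39). DESeq2 (adjusted p = 0.0656) and limma-voom (0.0566) did not call it, and the edgeR call was lost without OCA replicate A, OCA replicate C, DMSO replicate A (highest adjusted p, 0.292) or DMSO replicate B.

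Of 6 genes listed for the response to FXR, 3 were tested, and 2 of them rose and 1 fell. Over all tested genes, 2.18% were called higher and 3.03% lower. Osgin1, an oxidative stress-induced gene, had 73.4, 81.8 and 84.5 CPM with DMSO and 204, 230.3 and 228 CPM with OCA (log2 fold change 1.47, SE 0.07, edgeR adjusted p = 6.5e-11). Abcb11, the bile salt export pump and a classical FXR target, had 0.159 ± 0.0263 CPM with DMSO and 4.89 ± 0.592 CPM with OCA (edgeR adjusted p = 1.36e-06). Its counts were 3, 2 and 1.5 with DMSO and 60, 59.5 and 71 with OCA. Abcb11 thus passed the filter on low counts only through the OCA libraries, in which it is high. Nr1h4, which encodes FXR, fell: it had 84.0 ± 2.43 CPM with DMSO and 65.8 ± 2.6 CPM with OCA (log2 fold change -0.35, SE 0.07, edgeR adjusted p = 0.00535). The other 3 were too low to be tested. Nr0b2, a classical FXR target in hepatocytes, had counts of 0, 1.5 and 2 with OCA and 0 in each DMSO library, so that OCA replicate A equalled the DMSO libraries. Slc51a was at 0 in each OCA library and had 4.5 counts in DMSO replicate C alone, and Slc51b was at 0 in all 6. Osgin1 and Abcb11 were named because earlier results of these data were known.

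**Figure D4:**
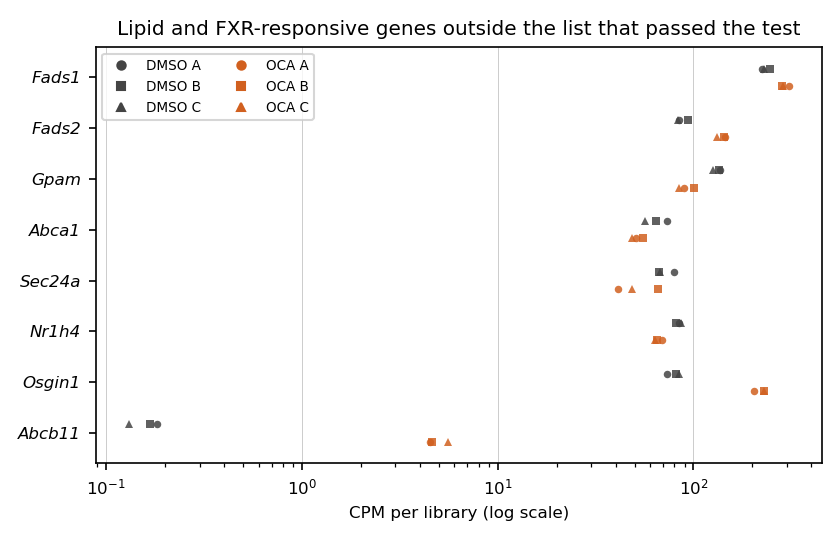
Level in each library, in CPM on a log axis, of Fads1, Fads2, Gpam, Abca1, Sec24a, Nr1h4, Osgin1 and Abcb11; each point is 1 library, coloured by group. The groups do not overlap for any of the 8 genes; Osgin1 and Abcb11 have wide gaps, and Abca1 and Sec24a narrow ones.

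The libraries held between 12260882 and 16336240 counts, so that 3 counts corresponded to 0.181 to 0.251 CPM. Within groups, pairs of libraries gave a chi-square per degree of freedom from 4.3 to 7.78, above sampling noise. The 10 stellate cell markers, among them Des, Lrat, Pdgfrb and Reln, were all detected and tested, with a summed level of 2801 to 3158 CPM in DMSO and 2363 to 3056 CPM in OCA libraries. Of these, 2 were called lower (Reln and Rgs5, named after their values were seen; 3.03% of tested genes were called lower) and 8 were not called. Reln had 632, 508 and 502 CPM with DMSO and 261, 489 and 225 CPM with OCA, with replicate B close to the DMSO libraries. Of the markers not called, Lrat, Des and Colec11 had all OCA libraries above the DMSO libraries (11.6% of tested genes). Their log2 fold changes were 0.32, 0.19 and 0.25. The groups overlapped for the other 5, with log2 fold changes of -0.28 (Dcn), -0.24 (Col1a1), -0.11 (Pdgfrb), -0.05 (Hand2) and 0.08 (Hgf). Hepatocyte markers summed to 169.7 to 196 and 189.8 to 197 CPM over 10 genes, nearly all of it Ass1, and Tat was at 0 in every library. The sums for Kupffer cells and macrophages (9 genes, 6.19 to 12.6 and 8.51 to 8.64 CPM), endothelial cells (8 genes, 3.98 to 6.02 and 3.06 to 6.53 CPM) and cholangiocytes (5 genes, 5.47 to 7.48 and 4.35 to 5.65 CPM, Krt7 and Cldn4 at 0) were low. The ranges of the 2 groups overlapped for each of these lists, and the part of other cells in the levels above was not tested.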

How the data were processed

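The authors deposited 1 table of exon counts per gene, with RefSeq transcripts and mm10 coordinates, described as unadjusted per the file headers. The submitters' processing notes name STAR, HOMER and mm10. Versions, strand and treatment of multiply mapped reads were not given in the sources used here. Values deposited by the authors behave as estimated counts in steps of 0.5 (26.5% to 29.8% of each column were not whole) and were rounded, ties to even, before testing.

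Tests were two-sided and used edgeR 4.0.16 (R 4.3.3; filterByExpr, TMM, glmQLFit, glmQLFTest) on all 6 libraries and 12687 genes, after trials on simulated counts. The biological coefficient of variation was 7.98% (common value). Intervals come from the standard error of the quasi-likelihood fit. DESeq2 1.42.0 and limma 3.58.1 (voom) served as alternatives, with other scalings, filters, a replicate block, no rounding, exon-length offsets and left-out libraries. Exon overlaps were read from GENCODE vM21. The 33 genes, the other lists and the tests were chosen with earlier results of these data known. All 33 could be named, and from other lists those called, or else the 2 most abundant.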

Additional observations from a re-analysis of the deposited data

How the results depend on the processing

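Each of the 33 genes was refitted under 18 alternatives, and 30 were called in none. Ebp, Tm7sf2 and Fasn were called in 1 or more, as given above. Without both OCA replicate B and DMSO replicate A, 2 of the 33 were called higher, both among the 23 of the SREBP2 branch. That fit called 605 genes of the whole table lower in place of 384. With offsets for exon length, 1 of the 33 was called higher, in the SREBP1 branch, and the SREBP1 median was 0.014. That fit called 205 genes of the table lower. The fit that called 384 lower called 2.18% of tested genes higher. Whole-table counts called higher in these 2 alternatives are not given here. With no filter on low counts, 703 genes of the table were called lower. With 1 library left out, between 0 and 1 of the 33 (SREBP2 branch: 0 to 1) were called higher, and of all tested genes between 161 and 363 were called higher and between 104 and 758 lower. The SREBP2 median then ranged from 0.031 to 0.13 and the SREBP1 median from -0.040 to 0.0056. The fit with a replicate block called 0 of 33 genes, with medians of 0.11 and -0.03 and 306 genes of the table higher and 508 lower. Deviations of same-lettered libraries correlated at 0.00051, -0.043 and 0.054. With 3 libraries in each group these values cannot decide whether the letters pair the libraries.

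Of 594 values of the 33 genes, 14 had the other sign, in 11 genes, and 13 of these arose with 1 library left out. The log2 fold changes with 1 library left out ranged from -0.080 to 0.27 for Acat2, from -0.072 to 0.0055 for Hmgcs1, from -0.0029 to 0.28 for Pmvk, from -0.20 to 0.17 for Idi1, from -0.0068 to 0.13 for Sqle, from -0.0044 to 0.094 for Cyp51, from -0.010 to 0.10 for Acaca, from -0.0047 to 0.095 for Elovl5, from -0.13 to 0.0053 for Scd1, from -0.063 to 0.0059 for Scd2 and from -0.093 to 0.034 for Mylip. Scd2 had 0.054 with offsets for exon length. Over all 18 alternatives some ranges were wider than with 1 library left out. For example, values reached 0.23 for Acaca, -0.0044 for Stard4 and -0.059 for Lss. The cause of these shifts was not tested. Of the genes that kept their sign, the value moved by over 1.5 times with 1 library left out for Nsdhl, Ebp, Insig1, Insig2, Stard4 and Srebf1, as given above, and for Mvk (0.068 to 0.18), Fdps (0.10 to 0.21), Fdft1 (-0.12 to -0.062), Hsd17b7 (-0.26 to -0.10), Sc5d (0.015 to 0.096), Dhcr7 (0.0070 to 0.13) and Elovl6 (-0.35 to -0.18). The standard errors were widest for Tm7sf2 and Idi1, the 2 genes with the lowest levels of the 33.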
